A study of Mus musculus with 2 samples.

Results

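The microRNA loci described here are those of 10 mouse microRNA genes tied to p53 or to stem cells: Mir34a, Mir34b, Mir34c, Mir145, Mir143, Mir302a, Mir302b, Mir302c, Mir302d and Mir367. They lie in 4 windows of the mm9 genome, and a p53 ChIP peak was counted as a member when its midpoint fell in one of them. The windows run from 149.40 to 149.48 Mb of chromosome 4 (Mir34a), from 50.88 to 50.94 Mb of chromosome 9 (Mir34b and Mir34c), from 61.77 to 61.84 Mb of chromosome 18 (Mir145 and Mir143) and from 127.22 to 127.28 Mb of chromosome 3 (Mir302a to Mir302d and Mir367). They held 33 of the 92924 peaks in the deposited list. The peaks come from cultured mouse embryonic stem cells of mixed C57BL/6X129Sv background and fewer than 20 passages, kept in serum medium with leukemia inhibitory factor and given Nutlin for 8 hours. The Nutlin dose is stated as 20 µM for the series and as 20 mM for each sample, and which unit holds was not resolved. There is 1 library of DNA pulled down with M-19, a p53 antibody, and 1 of input DNA, both from treated cells, so no value here is a response to Nutlin and none has an error between cultures. The windows were taken as given, since no mm9 gene annotation was used, and no peak is placed in an exon, intron or promoter.

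p53 is a transcription factor that stops the cell cycle or triggers cell death after damage, and Nutlin raises its level by keeping the ubiquitin ligase Mdm2 off it. The miR-34 family is the best known set of microRNAs whose genes p53 switches on, and its members repress genes of cell cycle entry and survival. miR-145 and miR-143 come from a shared primary transcript, are abundant in smooth muscle, and miR-145 is known to repress pluripotency factors such as Oct4 and Sox2 as stem cells differentiate. The miR-302 and miR-367 microRNAs are made as a cluster in pluripotent cells, where they promote rapid division and self-renewal. A microRNA finds its targets mainly through its seed, the bases from position 2 to 8 counted from its 5′ end.

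The mature sequences show which members of the loci share a seed. Members were chosen as named families, so a seed shared inside a family is not a separate result. The sequences are taken from RefSeq (GRCm38.p6) and are written 5′ to 3′ with the seed in capitals. A mature sequence was matched for 8 of the 10 genes, all but Mir145 and Mir143, whose seeds were not analysed here. miR-34c-5p and miR-302a-3p were not analysed here, and counts of entries that share a seed leave them out.
miR-34a-5p: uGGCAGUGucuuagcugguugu
miR-34b-5p: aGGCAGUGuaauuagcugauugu
miR-34b-3p: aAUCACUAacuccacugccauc
miR-34c-3p: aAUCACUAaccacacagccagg
miR-302b-3p: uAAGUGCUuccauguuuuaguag
miR-302d-3p: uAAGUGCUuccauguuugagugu
miR-302c-3p: aAGUGCUUccauguuucagugg
miR-302a-5p: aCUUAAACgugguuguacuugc
miR-367-3p: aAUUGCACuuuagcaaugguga
miR-34a-5p and miR-34b-5p have the same seed, and their genes are on chromosomes 4 and 9. In the RefSeq table this seed, GGCAGUG, was found in 4 of 1738 mature microRNAs (0.23%), the other two being miR-449a-5p and miR-449c-5p. The 3p strands of Mir34b and Mir34c share the seed AUCACUA, which no other entry had. The seed AAGUGCU of miR-302b-3p and miR-302d-3p was found in 5 entries, and the others were miR-291a-3p, miR-294-3p and miR-295-3p of the embryonic stem cell cluster. The 5′ part of miR-302c-3p matches that of miR-302b-3p but is listed as starting 1 base later, so its bases 2 to 8 read AGUGCUU. Their 3′ ends differ. Among the 5p strands, miR-302b-5p, miR-302c-5p and miR-302d-5p share the seed CUUUAAC, which only these 3 entries had, and the seed of miR-302a-5p was found in no other entry. The miR-367-3p seed AUUGCAC was found in 7 entries, among them miR-25-3p, miR-32-5p, miR-92a-3p and miR-363-3p.

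The 4 loci differed in how many p53 peaks they held and in how strong these were. The Mir145 and Mir143 window held 19 peaks, the Mir34a window 10, the Mir34b and Mir34c window 3, and the Mir302 and Mir367 window 1. Strength followed another order. The score of a peak is the value deposited by the authors from their peak caller; it is at least 50 here and grows with both enrichment over input and read depth. The highest score was 3100 in both miR-34 windows, 1706.05 in the Mir145 and Mir143 window, and 74.64 in the Mir302 and Mir367 window. A score of exactly 3100 was given to 1390 peaks of the list, and only 116 scored higher. Peaks that share this value cannot be ranked by score, so the strongest peaks of the miR-34 windows are not shown to be equally strong. The plot of scores along the windows shows the contrast between a few strong peaks, a row of peaks, and a single weak one.

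**Figure D1:**
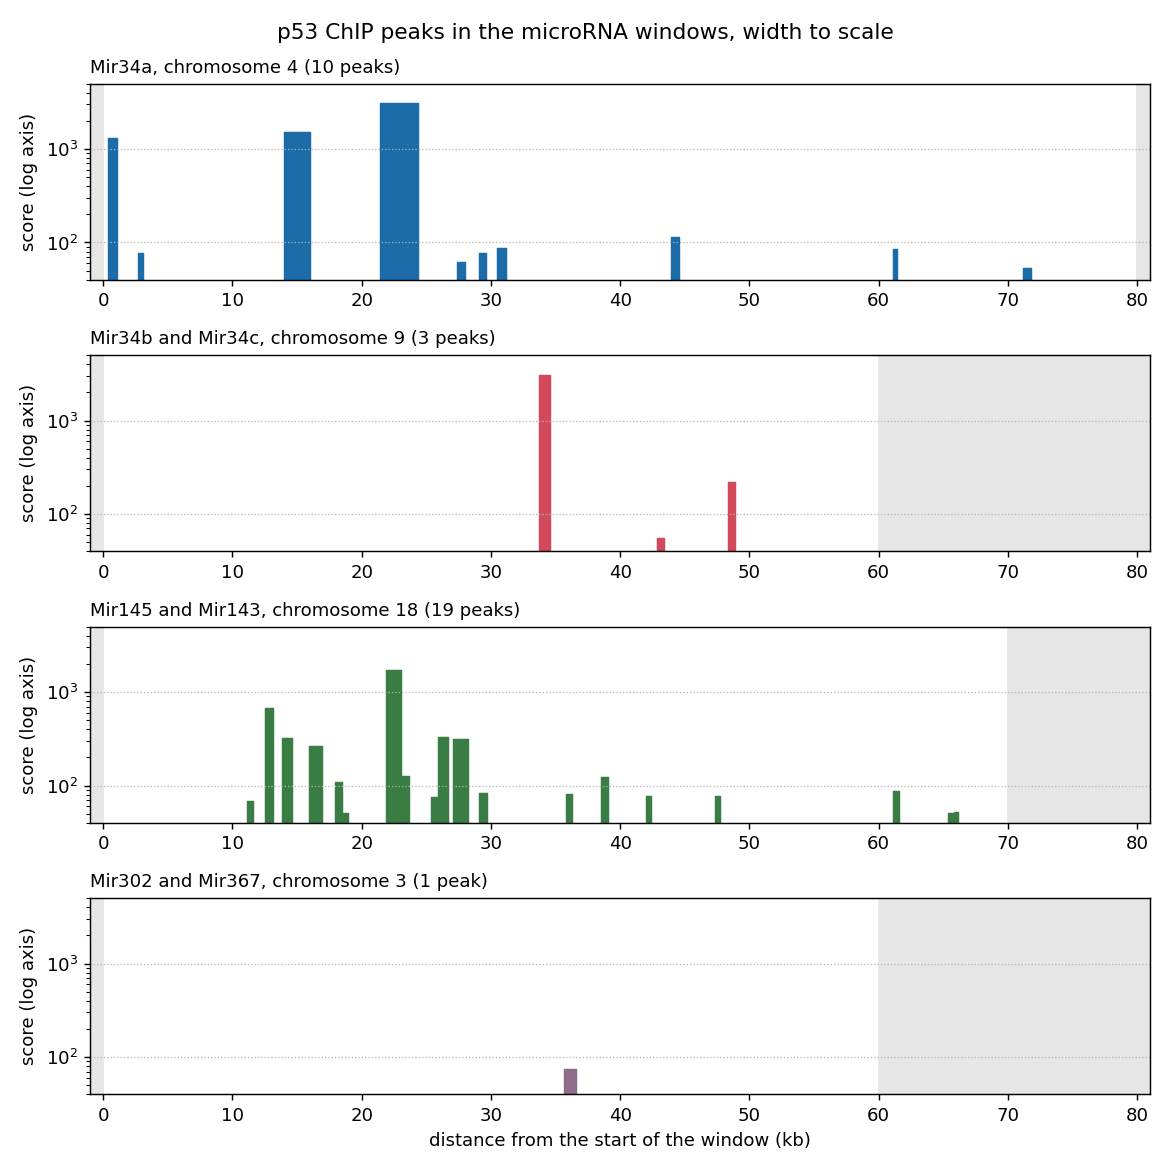
Score of each p53 ChIP peak (vertical, log axis from 40) against its distance from the start of the window in kb, with the peak's width to scale and areas outside the window in grey; dotted lines mark scores of 100 and 1000. The Mir34a window has 3 peaks above 1000, the Mir34b and Mir34c window and the Mir145 and Mir143 window have 1 each, and the Mir302 and Mir367 window has none.

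At Mir34a, the strongest peak was also one of the widest of the list. It ran from 149421393 to 149424387 on chromosome 4, was 2995 bases wide and scored 3100. At any score, 28 of the 92924 peaks were at least as wide, this one included. Of the 6357 peaks of chromosome 4, 96 (1.51%) scored as high. Of the 1390 peaks of the list at exactly 3100, 8 were at least as wide, this one included (0.576%), against a median width of 976 bases in that class. A second strong peak lay 5417 bases before it, from 149414002 to 149415975, with a score of 1522.99 and a width of 1974 bases. It was wider than most peaks of its strength: of 164 other chromosome 4 peaks scoring 1000 to under 2000, 3 were as wide (1.83%), and their median was 785 bases. Another strong peak, from 149400370 to 149401081, scored 1294.64 and was 712 bases wide, which was below the median of 788 bases for that class. Its midpoint lay 0.725 kb inside the edge of the window, so this peak was counted by a narrow margin.

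The other 7 peaks of the Mir34a window were weak. Of these, 3 stood close together after the strongest peak, between 149427395 and 149431165, with scores of 62.46, 77.19 and 87.30. The peak from 149443933 to 149444563 scored 113.80, and the last in the window, from 149471177 to 149471773, scored 53.54. The remaining weak peaks scored 77.53 and 84.78. The median score in the window was 86.0, close to 86.4 on the rest of chromosome 4, and 4 of 10 peaks reached 100 (40%) against 42.3% there. At scores of 1000 or more the shares lay further apart. In the window 3 of 10 peaks scored so high (30%, exact Clopper-Pearson 95% interval 6.67% to 65.2%). On the rest of the chromosome 326 of 6347 did (5.14%, 4.61% to 5.71%). The minimum of 1000 was chosen after seeing the data. Among these peaks of the window, that scoring 1294.64 lay only 0.725 kb inside the window edge. The intervals therefore do not establish a difference in share.

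The Mir34a locus lies in a part of chromosome 4 that is full of p53 peaks. Its window held 125 peaks per Mb (exact Poisson 95% interval 59.9 to 230), or 3 times the 41.6 per Mb on the rest of the chromosome (exact conditional 95% interval of the ratio 1.44 to 5.53). Among peaks scoring 100 or more the ratio was 2.84, on 4 peaks, and its interval of 0.773 to 7.28 included 1. Among the 500 kb on each side, however, the density was 147 per Mb (124 to 173), and against these neighbours the ratio was 0.850 (0.399 to 1.61). A density above that of its neighbourhood was therefore not detectable. For peaks of 1000 or more the window held 37.5 per Mb against 5 per Mb in the 500 kb on each side, a ratio of 7.50 (1.16 to 38.5) that rests on 3 and 5 peaks. Both this minimum and the comparison with neighbours were chosen after seeing the data. Of the 3 peaks, 1 lay only 0.725 kb inside the window edge, so the interval does not establish a difference. The 80 kb windows laid end to end along chromosome 4 held at least 10 peaks in 10.3% of cases (197 of 1907), and a peak of 3100 or more in 4.77% (91 windows).

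At Mir34b and Mir34c, a single strong peak followed a long stretch without peaks. It ran from 50913757 to 50914539 on chromosome 9 and scored 3100, a level that 80 of the 5197 peaks of the chromosome reached (1.54%). The preceding peak ended 96592 bases earlier, a stretch matched or exceeded by 231 of 5196 gaps between neighbouring peaks of chromosome 9 (4.45%). The next peak began 8339 bases later. None of the 39 peaks in the 500 kb on each side scored 3100, and the highest of these was 2246.12. In contrast to the strongest Mir34a peak, the peak was narrow for its score, with 783 bases against a median of 1011 in the 73 chromosome 9 peaks at exactly 3100. Of these 73, 62 were at least as wide, this one included.

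The other two peaks of the Mir34b and Mir34c window followed at 50922879 to 50923366, with a score of 55.94 and a width of 488 bases, and at 50928337 to 50928849, with a score of 218.46 and a width of 513 bases. Both were far weaker than the first. The number of peaks was not unusual: 50 per Mb (10.3 to 146) against 43.0 per Mb on the rest of the chromosome, a ratio of 1.16 (0.240 to 3.40). At least 3 peaks were found in 37.9% of the 60 kb windows of chromosome 9 (762 of 2013), but a peak of 3100 or more in only 3.87% (78 windows). The 500 kb on each side held 39 per Mb (27.7 to 53.3), also near the level of the chromosome. Both miR-34 loci thus held a peak at 3100, in neighbourhoods of 147 and 39 peaks per Mb.

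**Figure D2:**
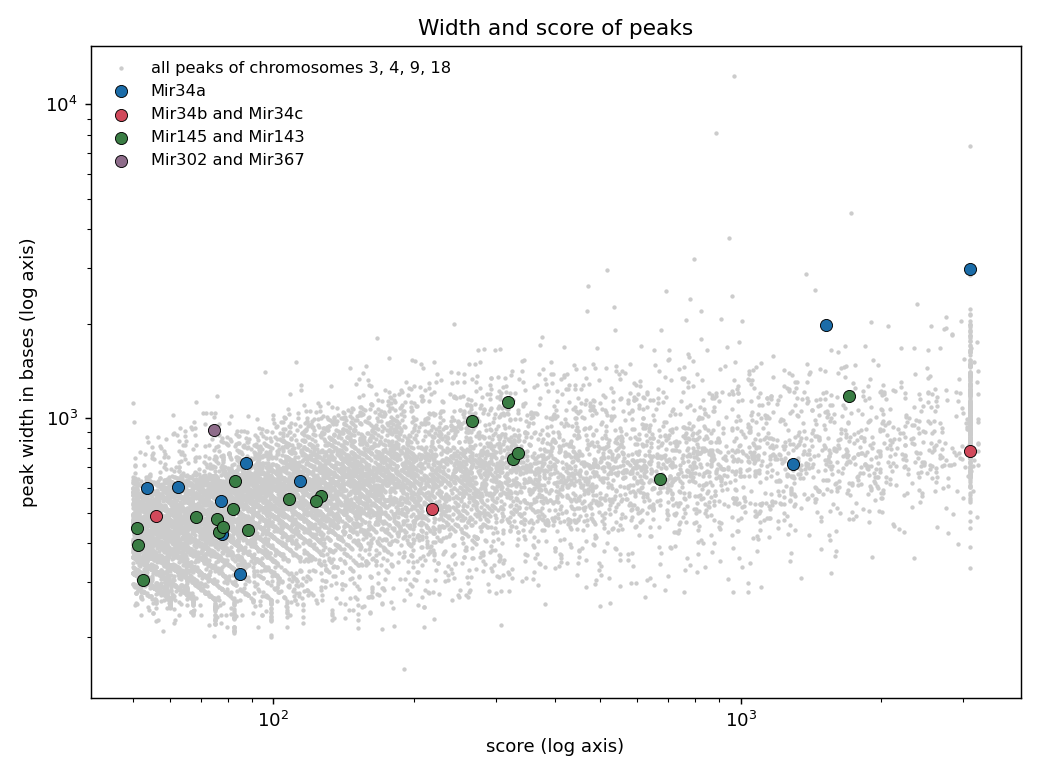
Width in bases (vertical, log axis) against score (horizontal, log axis) for the 33 peaks of the microRNA windows (coloured) and all peaks of chromosomes 3, 4, 9 and 18 (grey). The strongest Mir34a peak (2995 bases) lies near the top of the column at 3100 and the strongest Mir34b and Mir34c peak (783 bases) in its lower part, while the Mir302 and Mir367 peak (913 bases at a score of 74.64) lies at the upper edge of the weak peaks.

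The Mir145 and Mir143 window on chromosome 18 was the most crowded of the set, with peaks of mostly low to middle score. Its density was 271 peaks per Mb (163 to 424), 8.47 times that of the rest of chromosome 18 at 32.0 per Mb (5.09 to 13.3). The excess was also seen against the 500 kb on each side, which held 68 per Mb, with a ratio of 3.99 (2.27 to 6.72). Peaks covered 16.7% of the window and 1.73% of the rest of the chromosome. The median gap from the end of a peak to the start of the next was 1174 bases in the window, against 11389 bases (quartiles 3875 and 31283) outside.

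Within this window, 12 of the 19 peaks formed an unbroken row, in which no gap exceeded 5 kb, from 61781122 to 61799703. The row spanned 18.6 kb, of which peaks covered 46.2%. Its strongest peak, from 61791885 to 61793062, scored 1706.05 and was 1178 bases wide; 94 of the 2824 peaks of chromosome 18 scored as high (3.33%). It was followed after 9 bases by a peak of score 126.61. The second highest, from 61782520 to 61783157, scored 671.53. Scores of 333.67, 325.33 and 317.73 came next in the row, in peaks 776, 741 and 1127 bases wide. In all, 8 of the 12 peaks of the row scored 100 or more, against 1 of the 7 peaks after it, which lay between 61805773 and 61836113 and reached at most 123.63. On the rest of chromosome 18 the share was 42.5%. The row was drawn from these same peaks, and a difference between its 2 parts of the window was not tested. Only 2 of the 1974 rows and single peaks of chromosome 18 were as long, this one included, and the longer one had 13 peaks.

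The crowding of Mir145 and Mir143 came with scores like those of the chromosome. The median score was 88.2 in the window and 85.6 outside, and the share of peaks at 100 or more was 47.4% (24.4% to 71.1%) against 42.5%. None of the 19 peaks reached 3100. Such peaks were also rare on the rest of chromosome 18, where 34 of 2805 scored exactly 3100 and 2 scored higher. Several peaks nearly touched, with gaps of 8, 9, 27 and 69 bases. When peaks up to 1 kb apart were joined, 10 remained and the density ratio fell to 4.97 (2.38 to 9.16). No 70 kb window laid end to end along chromosome 18 held 19 peaks (0% of 1252), and the fullest had 18. These windows also cover the locus itself, and whether the fullest one holds its peaks was not analysed. When such windows were instead started at each peak outside the locus, 7 of 2804 held 19 or more, in 2 regions, with at most 20. A peak of 1706.05 or more was found in 7.11% of the 70 kb windows (89).

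**Figure D3:**
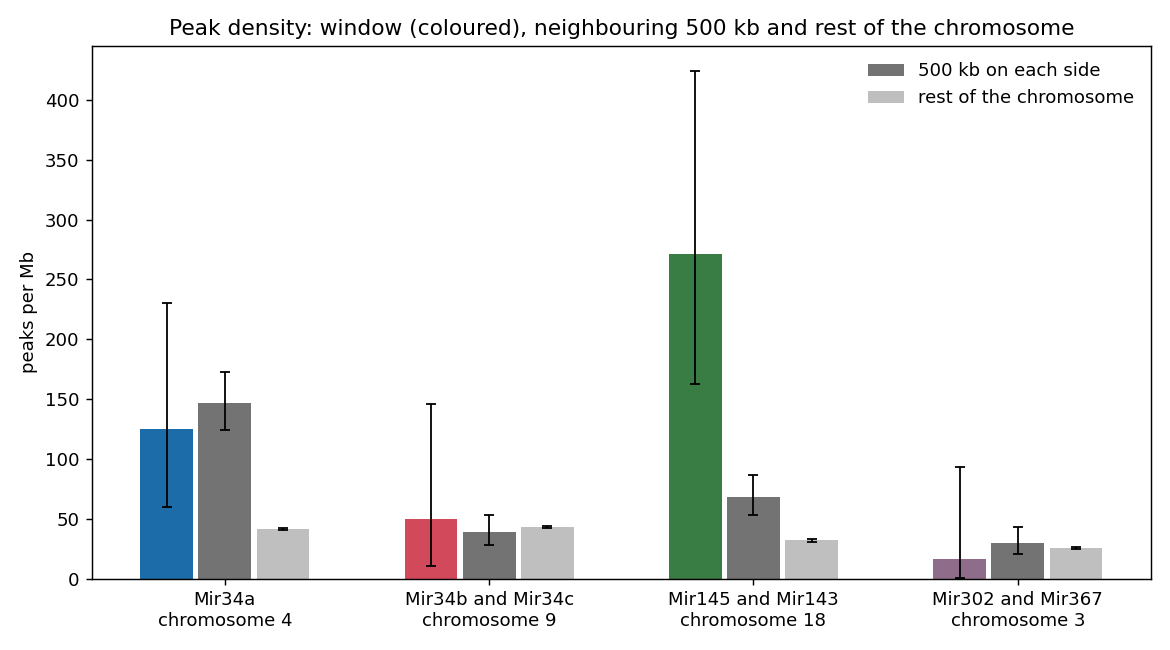
Peaks per Mb in each microRNA window (coloured), in the 500 kb on each side (dark grey) and on the rest of the chromosome (light grey), with exact Poisson 95% intervals that cover counting error only. The Mir145 and Mir143 window (271 per Mb) lies above both of its references, the Mir34a window (125 per Mb) lies above its chromosome but not above its neighbours, and the intervals of the other two windows include both references.

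The Mir302 and Mir367 window on chromosome 3 held 1 weak and broad peak. It ran from 127255653 to 127256565, was 913 bases wide and scored 74.64, a score that 61.0% of chromosome 3 peaks reached or exceeded. For so weak a peak its width was rare. Of 2255 other chromosome 3 peaks scoring 50 to under 100, only 2 were as wide (0.0887%), and their median was 441 bases. At any score, 4.87% of chromosome 3 peaks were at least as wide, this one included. The comparison within a score class was added after seeing the data. All 30 peaks in the 500 kb on each side were narrower, with a median of 409 and a maximum of 694 bases. The neighbouring peaks lay 59174 bases before and 52325 bases after it, with scores of 54.16 and 80.30.

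The 1 peak at the Mir302 and Mir367 cluster equalled the median count of 60 kb windows laid end to end along chromosome 3. The window held 16.7 peaks per Mb (0.422 to 92.9) against 25.6 per Mb on the rest of the chromosome, a ratio of 0.651 (0.0165 to 3.63). This interval is too wide to show a difference in either direction. At least 1 peak was found in 57.9% of the 60 kb windows of chromosome 3 (1509 of 2608), and a peak of 74.64 or more in 46.6% (1215 windows). Of the peaks in the window, 0 scored 100 or more; a density ratio at that minimum of up to 5.50 lies inside its interval.

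**Figure D4:**
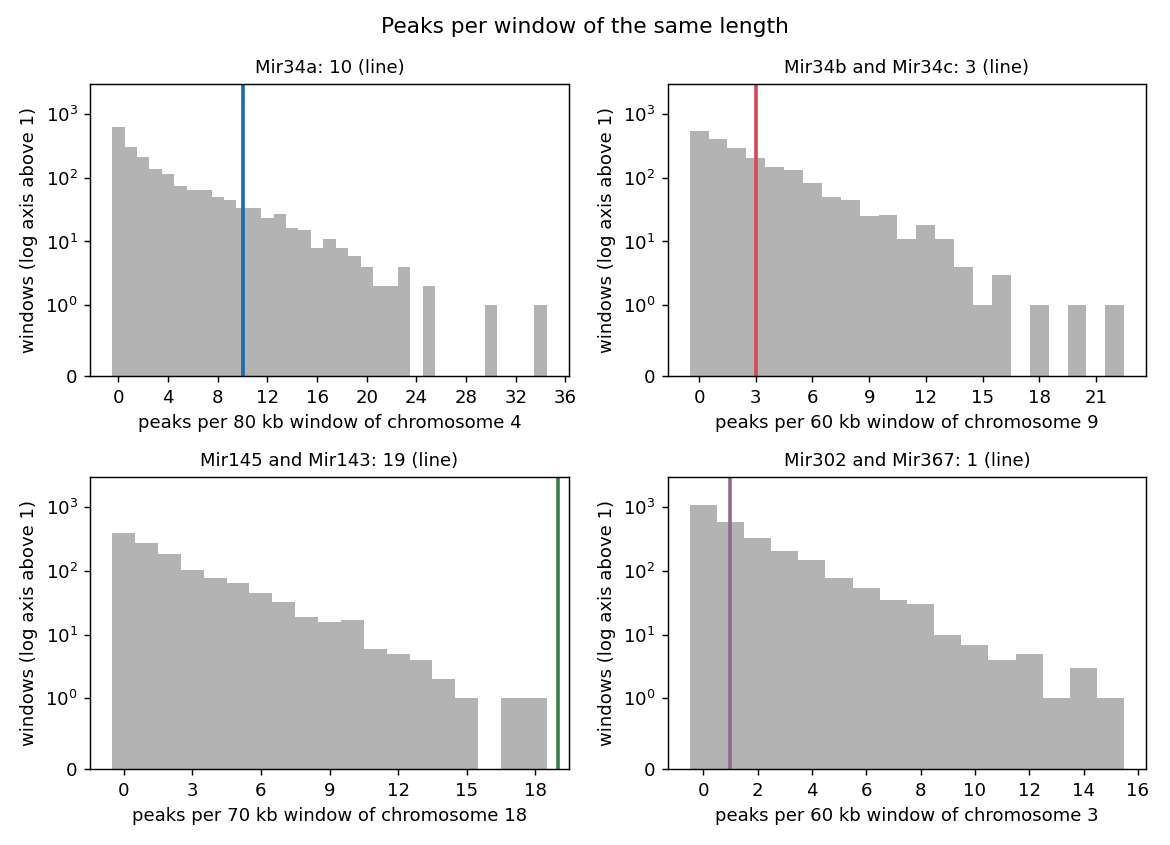
Number of windows (vertical, log axis above 1) by the number of p53 peaks they hold (horizontal), for windows of the same length as each microRNA window laid end to end along its chromosome; the coloured line marks the microRNA window. The 19 peaks of the Mir145 and Mir143 window lie beyond the fullest of 1252 windows (18), while the other lines fall inside their distributions. The windows drawn also cover the loci themselves, so they are not a reference free of the loci. Among windows started at each peak outside that locus, which are not drawn, 7 of 2804 held 19 or more.

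The 4 loci make 6 pairs, and in 3 of them the peak densities differed beyond counting error, by intervals not adjusted for the number of pairs. The Mir145 and Mir143 window was 16.3 times as dense as the Mir302 and Mir367 window (2.59 to 677) and 5.43 times as dense as the Mir34b and Mir34c window (1.60 to 28.6). Mir34a was 7.50 times as dense as Mir302 and Mir367 (1.07 to 325). The intervals included 1 for Mir145 and Mir143 over Mir34a (2.17, 0.961 to 5.23), Mir34a over Mir34b and Mir34c (2.50, 0.644 to 14.1), and Mir34b and Mir34c over Mir302 and Mir367 (3, 0.241 to 157). Neighbouring peaks are not independent, and the intervals are too narrow where peaks gather in rows. The spacing of peaks followed the same order, with median gaps of 1174 bases at Mir145 and Mir143, 5417 at Mir34a and 6654 at Mir34b and Mir34c, over 18, 9 and 2 gaps. Gaps shorten as density rises, so this order is not a separate result. On the rest of the respective chromosomes the median gaps were 11389, 6801 and 8922 bases. The median widths of 544, 618 and 513 bases lay near the 493, 515 and 503 bases of the respective chromosomes.

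Some peaks lay close to the edges of the windows. The start of the Mir34a window cut a row of 4 peaks, from 149391159 to 149403104, which includes the strong peak scoring 1294.64. The nearest peaks outside the Mir34a window lay 3.31 kb before it, with a score of 51.65, and 19.9 kb after it, with a score of 70.34. A peak of score 152.41 lay 2.57 kb beyond the Mir34b and Mir34c window. Before the Mir145 and Mir143 window, at a distance of 15.9 kb, lay a peak from 61753775 to 61754442 that scored 1824.22, above all 19 peaks inside.

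The genes around the microRNAs are given by name only, from RefSeq on GRCm38, a later build than that of the peaks. Mir34a is listed between the lncRNA Gm13067 and Gpr157, a G protein-coupled receptor gene. Mir34b and Mir34c lie inside the bounds of Btg4 and Hoatz. Mir143 and Mir145 (listed as Mir145a) lie inside the lncRNA Carmn, with Bvht, a lncRNA known from cardiac commitment, before them and Il17b after them. The cluster runs in the order Mir302b, Mir302c, Mir302a, Mir302d and Mir367 inside the bounds of Larp7, which encodes a protein of the 7SK RNA particle. Which of these genes, if any, a given peak lies in was not analysed here.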

How the data were processed

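The authors deposited a single list of peaks with chromosome, start, end, name and score. The score values were deposited as the peak caller wrote them, with a lowest value of 50, beside a start and an end in bases. CASAVA 1.8.2, MACS 1.4.1 and mm9 are named, per the submitters' processing notes. For the aligner, the caller settings and the read totals, nothing is given in the sources used here. The depth of each library is therefore unknown, and scores were compared only inside the list.

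Starts are printed counted from 1. The 4 windows and the gene list were chosen with earlier results of these data known. All 10 microRNA genes are named, with every peak of windows of 10 or fewer peaks and the 5 highest of the fuller window; the further peaks named there are its row's bounds and closest neighbours. The rest of a chromosome is the length from its first to its last peak without the window. Windows laid end to end start at the first peak of the chromosome and include the locus, also in the shares given. Densities have exact Poisson 95% intervals and their ratios exact conditional ones; shares have Clopper-Pearson intervals. No test was run, since each group has 1 library. Comparison within score classes, with 500 kb on each side, of rows (gaps of at most 5 kb) and of windows started at each peak was added after seeing the data. Other microRNA genes planned for comparison need mm9 annotation and were not analysed here. Python 3.11.15, NumPy 2.4.6, pandas 2.3.3, SciPy 1.17.1 and Matplotlib 3.10.9 were used, and the functions were tested on simulated data.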

Additional observations from a re-analysis of the deposited data

How the results depend on the processing

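Membership by any overlap gave the same number of peaks as membership by midpoint in all 4 windows. The Mir34a density ratio of 3 was 0.850 (0.399 to 1.61) against the 500 kb on each side and 17.5 (3.60 to 51.7) at scores of 1000 or more, on 3 peaks. At a minimum of 100 it was 2.84, with an interval (0.773 to 7.28) that includes 1. The Mir34b and Mir34c ratio of 1.16 was 6.80 (0.172 to 38.2) at 1000 or more, on 1 peak. The Mir145 and Mir143 ratio of 8.47 was 4.97 with peaks up to 1 kb apart merged and 3.99 against the 500 kb on each side. The Mir302 and Mir367 ratio of 0.651 was 0 at minimums of 100 and 1000, which left no peak and so no highest score. Widening the windows by 50 kb on each side raised the highest score to 1824.22 for Mir145 and Mir143 and to 80.30 for Mir302 and Mir367, by taking in further peaks, and did not change it for the other two. Of 24 alternative density ratios, 17 stayed inside the interval of their main value, the Mir34a ratio of 2.84 among them. Median gaps moved by over 1.5 times in 6 of 12 alternatives and median widths in 2 of 15. The comparison with 500 kb on each side and the minimum of 1000 were chosen after seeing the data. No paired analysis was possible because the p53 ChIP and the input are 1 library each, which also leaves no library to omit. Unknown depth limits any statement on weak peaks, such as the only one at Mir302 and Mir367.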
